A study of Sorghum bicolor with 12 samples.

Results

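The fully elongated internode (Int4) was compared with the elongating internode (Int2) of vegetative stems of sorghum, across every transcript whose mean RPKM reached 1 in either of them. RPKM is the number of reads of a transcript divided by its length and by the mapped reads of the library. This rule took 25081 of the 47205 transcripts of the annotation, which belonged to 19662 of its 34211 loci. Of these, 20618 reached the threshold in both internodes, 2412 in Int2 and not Int4, and 2051 in Int4 and not Int2. Near the threshold, 574 transcripts lay between 1 and 1.1 in the higher of both means, and 616 transcripts left out lay between 0.9 and 1.

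The plants were the bioenergy inbred R.07020, a photoperiod-sensitive genotype, grown in a chamber under 14 h days and harvested 60 days after planting while still vegetative. Leaves and leaf sheaths were removed, and the 4 successive internodes below the shoot apex were taken whole from 3 plants, with Int1 the youngest and Int4 the oldest. All internodes therefore share genotype, plant age and growth conditions, and they differ in position and age on the stem. The paper attributes growth of Int1 and Int2 mainly to rising cell number, and it saw a large increase in cell length between Int2 and Int3. Elongating is used here for an internode still short of its full length. Each internode has 3 libraries, numbered 1 to 3 in the labels. The libraries were treated as independent samples although the internodes came from the same plants, and all p values rest on this.

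A grass internode grows by cell division and cell expansion, and its cells then stop expanding and mature. Expansins loosen the primary wall and xyloglucan endotransglucosylase/hydrolases (XTH) cut and rejoin the xyloglucan that ties cellulose fibres together. Vessels and fibres later deposit a secondary wall of cellulose and xylan, which is stiffened by lignin made from phenylalanine. In the bulk RNA used here, fewer cells of a type and less RNA per cell cannot be told apart.

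RPKM values summed to between 499082 and 508319 in the Int2 libraries and to between 496419 and 504439 in the Int4 libraries. The spacing of low RPKM values put the depth of the 6 libraries between 0.958 and 1.179 times that of Int2 replicate 1, and the 3 Int4 libraries were the deepest. Replicates varied a little more in Int4 than in Int2, with a median SD of the log2 values of 0.22 against 0.17. The third Int4 library lay nearest to Int2. Over the transcripts called lower in Int4, defined below, its median log2 difference from the Int2 mean was -1.41, against -1.69 and -1.71 in replicates 1 and 2. The 25 transcripts in the photosynthesis category had a summed RPKM of 473, 458 and 415 in Int2 and of 566, 465 and 437 in Int4, which overlap. In 13 of them all 3 Int4 values lay above all 3 Int2 values and in 7 below, beside 24.6% and 37.3% of all tested transcripts. The study chose these transcripts as changed in these libraries, so their sum cannot serve as a check for leaf tissue. Chlorophyll-binding and Rubisco transcripts are not named in the lists used here and were not checked.

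Between Int2 and Int4, 5116 transcripts were called different, 2639 of them higher and 2477 lower in Int4. A call required a limma adjusted p under 0.001, a change of at least 2-fold and a mean RPKM that reached 2 in Int2 or Int4, with values analysed as log2(RPKM + 0.5). The calls were 19.4% of the 26320 transcripts tested, 10.03% higher and 9.41% lower. No called transcript had overlapping values in the 3 Int2 and the 3 Int4 libraries. Without a model, all 3 Int4 values lay above all 3 Int2 values for 6407 of the 25081 transcripts and below them for 9454, beside 24.6% and 37.3% of all tested transcripts. These counts use the values as deposited, in which the median log2 fold change over all tested transcripts was -0.17. That median became 0.005 with the median-ratio scaling described below, so the larger count of lower values is not read as more falls than rises.

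The called rises were larger than the called falls. The median log2 fold change was 2.01 among the called rises and -1.6 among the called falls, and 47 rises but 15 falls reached a log2 fold change of 5. The called rises made up 5.81%, 6.19% and 6.10% of the summed RPKM in the Int2 libraries and 27.0%, 25.9% and 23.4% in the Int4 libraries. The called falls went from 19.1%, 18.9% and 19.3% to 5.601%, 5.93% and 7.07%. The direction of both shifts follows from how the sets were called, so only their size is described. The median transcript sat at a log2 fold change of -0.17. When libraries were scaled to each other by the median ratio over transcripts, that median became 0.005 and 62.3% of 4976 calls were higher in Int4, in place of 51.58% of 5116. All 2639 rises and 1875 of the falls were also called after this scaling, and no call changed sign. Without Int4 replicate 3, the balance turned to 2536 higher and 2672 lower.

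**Figure D1:**
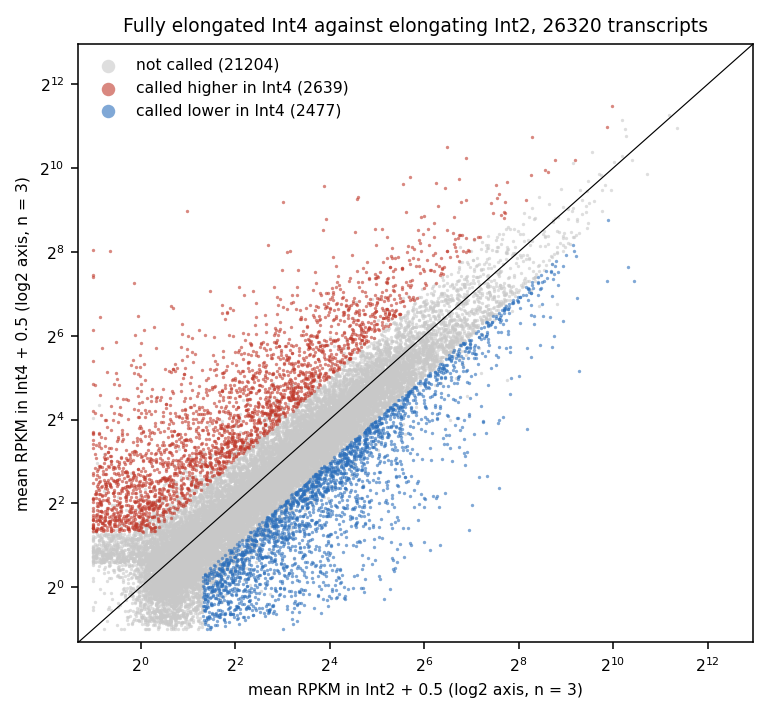
Mean RPKM + 0.5 in Int4 (vertical log2 axis) against Int2 (horizontal log2 axis) for 26320 tested transcripts, n = 3 libraries each. The 2639 transcripts called higher in Int4 (red) spread farther from the diagonal line of equality than the 2477 called lower (blue), and grey points were not called.

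The study designed qPCR primers for 10 transcripts, which it took from those differentially expressed in these libraries. Their counts are therefore not independent evidence of change. The paper reported that qPCR and RNA-seq gave highly similar patterns for them. Of the 10 transcripts, 7 rose and 2 fell in Int4, beside 10.03% and 9.41% of all tested transcripts. Gene names here come from a shortened copy of the study's annotation, the rest of which was not used, and none of these 10 is in that portion. Primer pairs are shown in lower case for the largest rise, the largest fall and the only transcript that was not called. The RPKM values below cover the whole transcript and not the stretch between its primers.
Sobic.001G494000.1 forward: cgtgggtatacgatggtcac
Sobic.001G494000.1 reverse: ccctccttaattccccactg
Sobic.003G328500.1 forward: ggctatcctggttgattgga
Sobic.003G328500.1 reverse: atagctgaaacgccgacaag
Sobic.008G112200.1 forward: cgtacatgctgcggagtg
Sobic.008G112200.1 reverse: acgatgagctcctcctcctg

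Sobic.001G494000.1 had RPKM values of 3.32, 3.19 and 1.11 in Int2 and 39.8, 26.8 and 31.6 in Int4. Every Int4 library was far above every Int2 library, with a log2 fold change of 3.53 (SE 0.28, limma adjusted p = 9.23e-07). Sobic.003G328500.1 ran the other way, with 41.2, 42.7 and 58.5 in Int2 and 0.18, 0.4 and 2.88 in Int4. It was nearly lost from Int4, with a log2 fold change of -5.22 (SE 0.45, limma adjusted p = 1.74e-06), although replicate 3 retained more than the other Int4 libraries. For Sobic.008G112200.1, the values were 4.37, 3.37 and 2.25 in Int2 and 3.86, 2.78 and 3.08 in Int4. These overlapped, and the log2 fold change was -0.01 (SE 0.23). Its mean was highest in Int3, at 8.78 ± 1.3 (SD, n = 3).

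The other called transcripts of the primer set changed less. Sobic.002G242500.1 rose from 1.88 ± 0.55 to 17.0 ± 1.77 RPKM (SD, n = 3) and Sobic.003G300800.1 from 1.05 ± 0.45 to 9.94 ± 3.75. The rises of Sobic.009G241600.1, Sobic.003G119800.1, Sobic.006G170300.1 and Sobic.005G085000.1 had log2 fold changes of 2.29, 1.72, 1.66 and 1.26. Sobic.005G017500.1 fell from 8.62 ± 0.64 to 3.22 ± 0.33 RPKM. Of these, 4 calls ended when single libraries were left out. Sobic.009G241600.1 lost its call without Int2 replicate 3 or any 1 Int4 library (limma adjusted p up to 0.00287), and Sobic.006G170300.1 without any 1 Int2 library or Int4 replicates 2 or 3 (up to 0.00218). Sobic.005G017500.1 lost it without Int2 replicates 2 or 3 or Int4 replicate 2 (up to 0.00151), and Sobic.005G085000.1 without Int4 replicate 2 (0.00102).

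The 15 largest rises reached from 5.96 upwards on the log2 scale, and their transcripts were low in Int2, where no value passed 8.33 RPKM. Of these 15 transcripts, 1 is named in the portion of the annotation used. Sobic.008G030700.1, best matched by an Arabidopsis non-specific lipid transfer protein, had 1.53, 0.73 and 1.06 in Int2 and 128, 95.6 and 75.9 in Int4. Proteins of this family carry lipids across the wall space. It rose in every Int4 library, with a log2 fold change of 5.96 (SE 0.31, limma adjusted p = 5.36e-08), and its mean in Int3 was 20.7 ± 8.27 RPKM.

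The most abundant of these rises was Sobic.002G207300.1, with 6.55, 7.7 and 8.33 in Int2 and 552, 624 and 564 in Int4. The 3 Int4 values lay close together, and the log2 fold change was 6.18 (SE 0.14). It opens a run of 7 neighbouring tested loci, ending at Sobic.002G208200, that all had a called rise. Sobic.002G018500.1 had 1.34, 1.54 and 1.57 in Int2 and 417, 579 and 503 in Int4. It rose by 7.97 on the log2 scale (limma adjusted p = 2.67e-07).

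Some large rises differed widely between the Int4 libraries. Sobic.010G178000.1 had 0, 0 and 0.16 in Int2 and 43.6, 201 and 14.5 in Int4. Its near neighbour Sobic.010G177800.1 had 0, 0 and 0 in Int2 and 93.0, 384 and 32.6 in Int4. In both, replicate 2 was highest and replicate 3 lowest in Int4, and the values of Sobic.010G177800.1 were listed at 0 throughout Int2. Sobic.002G109400.1 showed the same order, with 1.01, 0.1 and 0.11 in Int2 and 172, 214 and 72.7 in Int4.

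**Figure D2:**
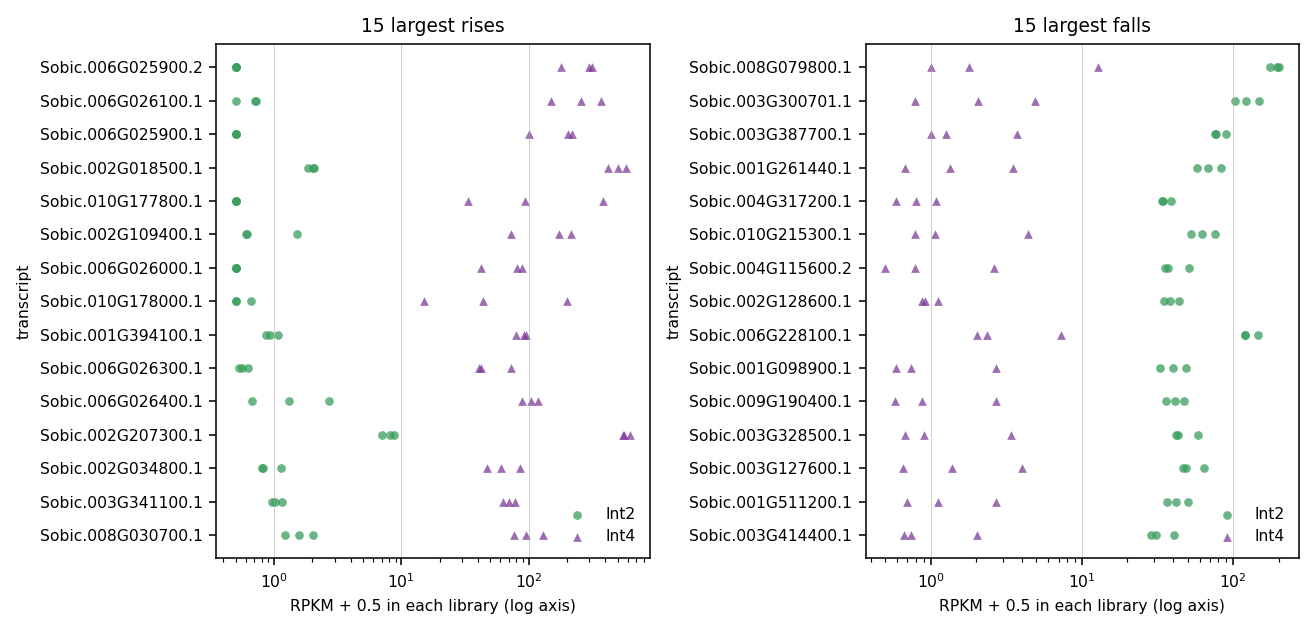
RPKM + 0.5 (log axis) in each of the 3 Int2 libraries (circles) and 3 Int4 libraries (triangles) for the 15 largest rises (left) and the 15 largest falls (right) by log2 fold change. The transcripts were chosen among calls without overlap between the internodes. In the falls 1 Int4 library, replicate 3 in 14 of 15, stands to the right of the other triangles.

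Of the 15 largest rises, 6 came from a short stretch of chromosome 6, from Sobic.006G025600 to Sobic.006G026600. This stretch was chosen after its values were seen. It holds 14 transcripts of 12 loci, of which 13 were tested. Of the tested transcripts 10 were called higher in Int4 and 0 lower, beside 10.03% and 9.41% of all tested transcripts. The choice of the stretch raises its count of rises, so nothing is read from it. None of these loci is named in the portion of the annotation used. Sobic.006G025900.2 had 0, 0 and 0 in Int2 and 179, 299 and 316 in Int4. It was listed at 0 in all 3 Int2 libraries, so that no fold is given, and the test gave a limma adjusted p of 3.84e-06. Sobic.006G026100.1 had 0, 0.21 and 0.22 in Int2 and 149, 366 and 259 in Int4. Here too the Int4 values were high against almost none in Int2, with replicate 1 the lowest.

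Sobic.006G026000.1 was also listed at 0 throughout Int2, with 0, 0 and 0 in Int2 and 41.8, 87.5 and 80.8 in Int4. Sobic.006G026400.1, with 0.82, 2.19 and 0.17 in Int2 and 88.4, 118 and 103 in Int4, was already at 13.0, 28.9 and 22.2 in Int3. Most of the stretch was nearly silent in Int3 libraries 1 and 3 but not in library 2, where Sobic.006G026100.1 reached 49.8 RPKM against 1.12 and 0.77. A neighbour inside the stretch did not share the rise. Sobic.006G026250.1 had 7.21, 6.77 and 8.25 in Int2 and 4.14, 5.52 and 6.2 in Int4, which gave a log2 fold change of -0.46 (SE 0.17) and no call. Reads can be divided among near-identical genes and among the transcripts of 1 locus, so values of single transcripts in such a cluster are uncertain.

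**Figure D3:**
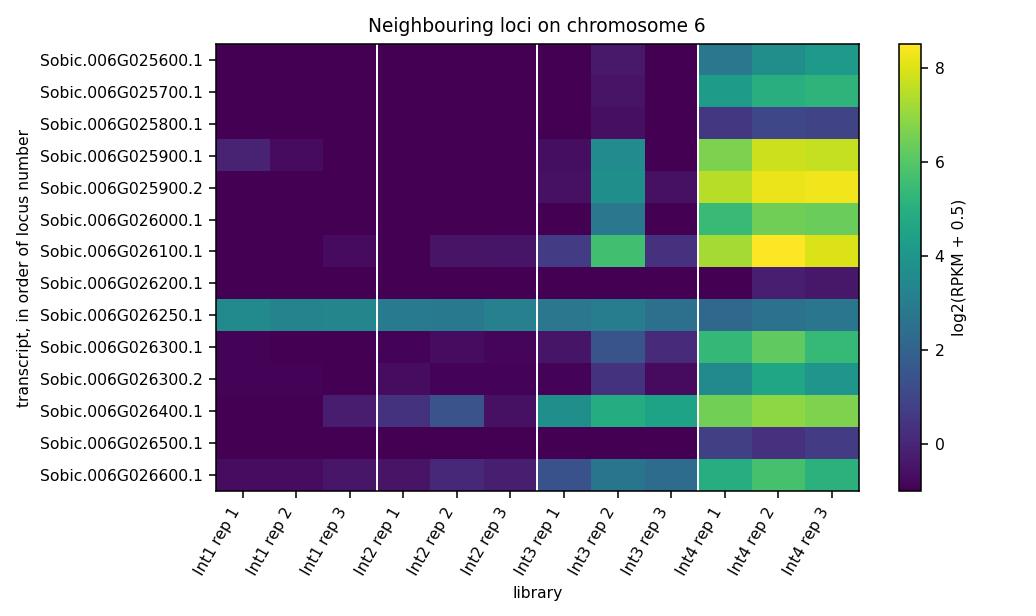
Colour shows log2(RPKM + 0.5) of 14 transcripts of neighbouring loci on chromosome 6 (rows, in order of locus number) in all 12 libraries (columns). The 10 transcripts called higher are bright in the 3 Int4 libraries and dark in Int1 and Int2, Int3 replicate 2 stands between, and Sobic.006G026250.1 has values in all 12 libraries and does not brighten.

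Called neighbours occurred elsewhere as well. Among 20246 tested loci in order of their numbers, 12.11% had a called rise, while 19.49% of those with a rise were followed by another. For falls the shares were 11.7% and 14.86%. The longest run of falls spanned 5 tested loci, from Sobic.010G014200 to Sobic.010G014700. Such pairs can be near-identical genes that share reads, which was not tested.

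The 15 largest falls reached from -5.05 downwards, and 2 of their transcripts are named in the portion of the annotation used. Sobic.006G228100.1, an XTH by its Arabidopsis match, had 119.6, 119 and 146 in Int2 and 1.51, 1.84 and 6.81 in Int4. Its transcript was abundant in Int2 and nearly lost from Int4, with a log2 fold change of -5.3 (SE 0.37, limma adjusted p = 3.32e-07). Sobic.002G128600.1, categorised as a phosphatidylcholine-sterol O-acyltransferase, had 43.3, 37.9 and 34.3 in Int2 and 0.42, 0.38 and 0.62 in Int4. It was below 1 RPKM in all Int4 libraries, with a log2 fold change of -5.33 (SE 0.15, limma adjusted p = 1.08e-09).

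The largest called fall, Sobic.008G079800.1, is not named in that portion and had 176, 196 and 202 in Int2 and 1.29, 0.51 and 12.2 in Int4. The third Int4 library stood above the other Int4 libraries, yet far below Int2, and the log2 fold change was -6.07 (SE 0.67). Sobic.003G300701.1 had 102, 121 and 148 in Int2 and 0.29, 1.56 and 4.37 in Int4. Sobic.003G387700.1 had 75.4, 76.2 and 88.8 in Int2 and 0.51, 0.77 and 3.2 in Int4. In 14 of the 15 largest falls, replicate 3 was the highest library of Int4, and in 14 of 15 it was also the highest of Int2. Over all 2477 falls, Int4 replicate 3 was the highest Int4 library in 1663.

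In absolute terms the 10 largest gains together rose from between 0.600% and 0.632% of the summed RPKM in Int2 to between 2.34% and 2.94% in Int4. They were chosen by this change, which fixes its direction. Among transcripts named in the portion of the annotation used, the largest gain was a phenylalanine ammonia-lyase, described with lignin below. Sobic.002G324200.1 had 926, 1001 and 1108 in Int2 and 2788, 3034 and 2794 in Int4. It was abundant already in Int2 and rose by a log2 fold change of 1.51 (SE 0.15). Sobic.009G161500.1 had 98.5, 102 and 68.0 in Int2 and 1693, 1556 and 1132 in Int4. Sobic.006G211701.1 changed most in proportion, with 14.7, 17.2 and 10.8 in Int2 and 801, 948 and 530.1 in Int4 and a log2 fold change of 5.68 (SE 0.26, limma adjusted p = 2.85e-08). These gains were chosen among calls without overlap between the internodes.

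None of the 10 largest losses is named in that portion. Together they fell from between 1.32% and 1.68% of the summed RPKM to between 0.280% and 0.348%, a direction that their choice fixes as well. Sobic.008G035400.1 had 1273, 1573 and 1338 in Int2 and 111, 130.4 and 228 in Int4. Its loss in mean RPKM was the largest among called falls without overlap, with a log2 fold change of -3.22 (SE 0.25, limma adjusted p = 7.81e-07). Sobic.006G172700.1 had 1603, 1304 and 942 in Int2 and 163, 235 and 197 in Int4. Within Int2, its highest library was well above its lowest, but all lay far above Int4. Sobic.006G238000.1 had 875, 629 and 349 in Int2 and 39.3, 40.5 and 26.5 in Int4, a log2 fold change of -4.03 (SE 0.29).

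Int3 and Int1 place these changes along the stem. For 2383 of the 2639 rises the mean log2 value of Int3 lay between those of Int2 and Int4, for 218 it was at or beyond Int4, and for 38 it lay on the other side of Int2. The median rise was 0.57 of the way from Int2 to Int4 at Int3 (quartiles 0.42 and 0.75). For falls, Int3 lay between in 2189 of 2477 and the median position was 0.61 (quartiles 0.42 and 0.79). Int1 was lower than Int2 for 1981 of the rises and higher than Int2 for 1730 of the falls. Differences of any size in the deposited values count here, and the shares over all tested transcripts are not given, so no trend is read from them. The paper describes Int1 and Int2 as similar in development. The positions of Int1 and Int3 share the Int2 and Int4 libraries with the comparison itself and carry no test.

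Transcripts above the threshold in 1 of both internodes were mostly weak. The 2412 seen in Int2 and not Int4 had a median mean of 1.54 RPKM, 604 of them (25.04%) were called lower, beside 9.41% of all tested transcripts, and the highest mean was 41.1. Of the 2051 seen in Int4 and not Int2, 807 (39.35%) were called higher, beside 10.03%, the median mean was 1.90 and the highest 265. These transcripts passed the threshold only through the internode where they were high, which raises their share of calls, so nothing is read from it. Means of at least 10 RPKM were reached by 84 and 139 of these transcripts. In Int4, 10 of the first set were listed at 0 in all 3 libraries, and in Int2, 66 of the other set.

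Categories and names come from the shortened copy of the study's annotation, with 770 transcripts in the portion used here, grouped into 32 lists by their category. The study chose those transcripts as changed in these libraries, so the counts are not independent evidence of change or of direction. Of the 770, 275 were called higher and 186 lower in Int4, beside 10.03% and 9.41% of all tested transcripts, shares that are also the background of each list count below, with a median log2 fold change of 0.68 against -0.17 over all tested transcripts. The medians of single lists ran from 1.92 for hemicellulose synthesis to -1.63 for starch synthesis. Scaling moved each median up and turned the sign of 1 list, wax, from -0.11 to 0.08. Transcripts of cell division, hormone action and transcription control have no names in the portion used and are not analysed here by function.

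**Figure D4:**
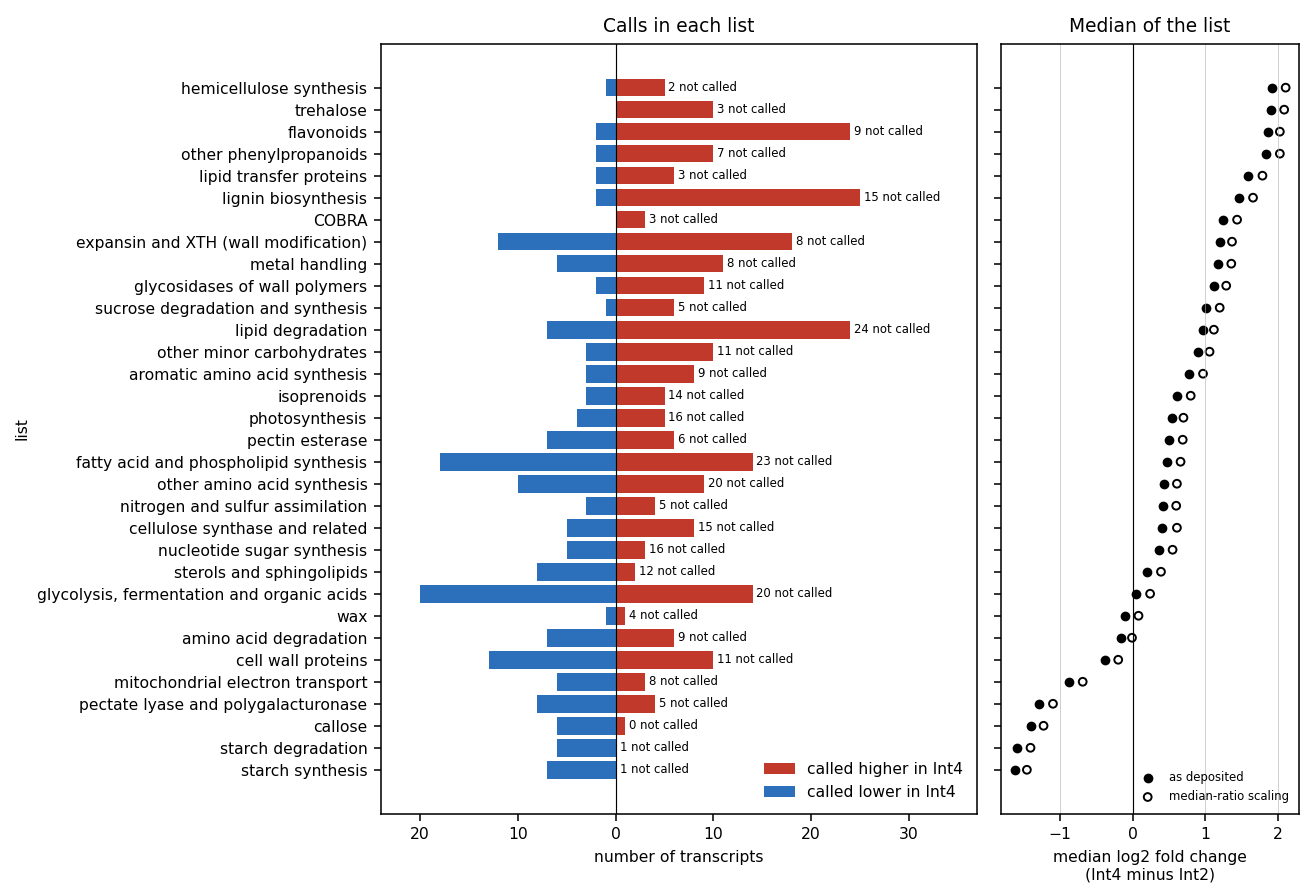
Left, the number of transcripts of each of the 32 lists called higher (red, to the right) and lower (blue, to the left) in Int4, with the number not called. Right, the median log2 fold change of each list as deposited (filled) and after median-ratio scaling (open), from 1.92 for hemicellulose synthesis to -1.63 for starch synthesis, with wax the list whose sign turns.

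Cellulose synthases make the glucan chains of cellulose fibres, and plants use different sets of them for primary and secondary walls. Of 28 transcripts in this list, 8 rose and 5 fell, with a median of 0.41. The 3 largest rises are the transcripts whose Arabidopsis best matches are the secondary wall cellulose synthases. Sobic.002G205500.1 had 22.1, 16.4 and 5.88 in Int2 and 177, 109 and 101 in Int4. The rise, a log2 fold change of 3.22 (SE 0.39, limma adjusted p = 2.6e-05), exceeded a wide spread between the Int2 libraries. Sobic.003G296400.1 had 26.8, 19.6 and 7.07 in Int2 and 186, 126 and 127 in Int4. Sobic.001G224300.1 had 24.0, 17.6 and 7.64 in Int2 and 185, 101 and 92.9 in Int4. In all 3, Int2 replicate 1 was the highest and replicate 3 the lowest of Int2, and Int4 replicate 1 was the highest of Int4. Their log2 fold changes were 3.22, 3.17 and 2.98.

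These 3 transcripts had their highest mean in Int3. Their means in Int3 were 152 ± 43.0, 205 ± 62.0 and 146 ± 35.7 RPKM (SD, n = 3), above the means of 129 ± 41.7, 146 ± 34.6 and 126 ± 50.9 in Int4, with overlapping libraries. The most abundant cellulose synthase, Sobic.002G118700.1, best matched by a primary wall type of Arabidopsis, had 202, 224 and 189 in Int2 and 545, 519 and 425 in Int4. It rose by a log2 fold change of 1.27 (SE 0.14), and its mean in Int3 was 563 ± 33.4, with libraries that overlap those of Int4. Sobic.001G099100.1, matched to the membrane-bound endoglucanase KORRIGAN of Arabidopsis, which acts in cellulose synthesis, had 252, 243 and 208 in Int2 and 347, 278 and 289 in Int4. It was not called, with a log2 fold change of 0.37 (SE 0.11).

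The largest falls in this list were of cellulose synthase-like genes. Sobic.008G125700.1, whose match is a cellulose synthase-like D gene of Arabidopsis, had 20.7, 25.3 and 30.5 in Int2 and 0.08, 0.3 and 1.09 in Int4. All Int4 values were near or below 1, and the log2 fold change was -4.83 (SE 0.34). Sobic.004G075900.2, matched to a beta-mannan synthase, had 184, 196 and 188 in Int2 and 50.8, 28.9 and 54.1 in Int4 and fell with a log2 fold change of -2.12 (SE 0.20, limma adjusted p = 2.91e-06). The xyloglucan-type Sobic.003G308100.1 had a log2 fold change of -1.4 (SE 0.16).

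COBRA-like proteins are anchored at the cell surface, and some are needed for cellulose deposition in Arabidopsis. Of 6 transcripts, 3 rose and 0 fell. Sobic.001G336700.1 had 9.49, 4.71 and 1.77 in Int2 and 79.0, 46.0 and 41.4 in Int4. Its rise, a log2 fold change of 3.45 (SE 0.43, limma adjusted p = 2.84e-05), had the same libraries at the extremes of Int2 as the secondary wall cellulose synthases. The most abundant, Sobic.001G086200.1, had 277, 279.6 and 231 in Int2 and 381, 329.5 and 319.9 in Int4, which did not overlap, and it was not called, with a log2 fold change of 0.39 (SE 0.11).

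Xylan and other hemicelluloses surround the cellulose. In the list for their synthesis, 5 of 8 transcripts rose and 1 fell, with the highest median of all lists, 1.92. Sobic.001G409100.1, matched to IRX9, which in Arabidopsis helps to extend the xylan backbone, had 19.9, 17.6 and 14.7 in Int2 and 145, 95.5 and 86.6 in Int4. It rose with a log2 fold change of 2.59 (SE 0.18, limma adjusted p = 3.61e-07). Sobic.003G376700.1, matched to an enzyme that adds glucuronic acid to xylan, had 123, 125 and 149 in Int2 and 319.8, 337 and 293 in Int4 and a log2 fold change of 1.26 (SE 0.11). The neighbouring xyloglucan fucosyltransferase-like transcripts went opposite ways. Sobic.004G308400.1 rose, with 1.07, 1.61 and 1.51 in Int2 and 11.5, 9.39 and 11.7 in Int4, while Sobic.004G308600.1 fell, with 2.28, 1.93 and 2.05 in Int2 and 0.3, 0.17 and 0.07 in Int4. The fall lost its call without Int2 replicate 1 or Int4 replicates 2 or 3, with limma adjusted p values from 0.00103 to 0.00114.

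Nucleotide sugars are the substrates of these polymers. In their list of 24 transcripts, 3 rose and 5 fell, with a median of 0.36, and 5 rose after scaling. The 2 most abundant members were not called. Sobic.001G418100.2, a UDP-xylose synthase, had 636, 495 and 368 in Int2 and 458, 279 and 318 in Int4, which overlapped. Sobic.001G459800.1, a UDP-glucose dehydrogenase, had 211, 206 and 179 in Int2 and 428, 258 and 259 in Int4, a log2 fold change of 0.62 (SE 0.18). Sobic.003G442300.1, a UDP-apiose/xylose synthase, had 123, 123 and 121 in Int2 and 31.5, 24.5 and 30.1 in Int4. The Int2 libraries agreed closely, and the fall had a log2 fold change of -2.08 (SE 0.10, limma adjusted p = 4.55e-08). Sobic.006G217300.1, matched to MUR4, which makes UDP-arabinose in Arabidopsis, rose with a log2 fold change of 1.74 (SE 0.13).

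Wall-loosening proteins split in both directions. Of 38 transcripts of expansins and XTH, 18 rose and 12 fell, with a median of 1.2. Among expansins 13 of 22 rose and 4 fell. Among XTH 5 of 16 rose and 8 fell. Sobic.001G300500.1, a beta-expansin, had 2.6, 1.8 and 1.17 in Int2 and 50.4, 98.5 and 60.7 in Int4. Sobic.001G300800.2, a near neighbour, had 6.17, 5.0 and 3.06 in Int2 and 161, 130.0 and 111 in Int4. Both were higher in every library of the fully elongated internode, with log2 fold changes of 4.89 (SE 0.33) and 4.71 (SE 0.27). These genes number within a few loci of each other and could share reads.

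The XTH falls were as steep. Besides Sobic.006G228100.1, Sobic.004G126700.1 had 49.5, 43.3 and 35.6 in Int2 and 1.67, 0.57 and 1.85 in Int4 and a log2 fold change of -4.61 (SE 0.25, limma adjusted p = 6.35e-08). Sobic.005G140001.1 had 23.8, 33.5 and 33.2 in Int2 and 2.68, 0.17 and 2.28 in Int4. Its mean in Int3, 29.4 ± 1.79, was still at the level of Int2, so that its fall came between Int3 and Int4. The rises included Sobic.007G090436.1, with 85.0, 62.1 and 29.2 in Int2 and 455, 266 and 206 in Int4, a call that was lost without Int2 replicates 2 or 3 or Int4 replicates 1 or 2 (limma adjusted p from 0.00114 to 0.00181). The most abundant transcript of the list, the XTH Sobic.010G246700.1, had 707, 889 and 717 in Int2 and 531, 719 and 535 in Int4. These values overlapped and it was not called. Its neighbour Sobic.010G246600.1 rose from almost nothing, with 0.06, 0 and 0.12 in Int2 and 12.7, 14.4 and 7.41 in Int4.

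Among transcripts of structural and surface proteins of the wall, 10 of 34 rose and 13 fell, with a median of -0.38. Arabinogalactan proteins, which carry long sugar chains at the cell surface, counted 3 rises and 7 falls among 14 transcripts. Sobic.009G081400.1 of this family had 31.9, 26.6 and 20.9 in Int2 and 0.73, 0.41 and 0.77 in Int4 and a log2 fold change of -4.56 (SE 0.18, limma adjusted p = 1.22e-08). A fasciclin-like member ran the other way. Sobic.009G056400.1 had 0.79, 0.62 and 0.13 in Int2 and 15.8, 11.4 and 9.78 in Int4, although its mean was higher still in Int3, at 33.4 ± 22.2. Sobic.004G215000.1, a leucine-rich repeat protein, had 331, 391 and 331 in Int2 and 65.1, 44.2 and 53.2 in Int4 and a log2 fold change of -2.7 (SE 0.16, limma adjusted p = 1.3e-07).

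Pectin is the gel of the primary wall, cut by pectate lyases and polygalacturonases. Their list had 4 rises and 8 falls among 17, with a median of -1.29, and its summed RPKM was 541, 537 and 464 in Int2 and 265, 252 and 243 in Int4. Sobic.001G026800.1 had 121, 121 and 115 in Int2 and 36.8, 32.9 and 37.6 in Int4. The spread was small and the fall had a log2 fold change of -1.72 (SE 0.07, limma adjusted p = 1.92e-08). Sobic.002G343600.1, matched to a polygalacturonase-inhibiting protein and not to an enzyme that cuts pectin, had 91.2, 89.6 and 72.3 in Int2 and 13.6, 2.58 and 17.7 in Int4. The largest rise was Sobic.003G141800.1, with 4.0, 3.55 and 3.74 in Int2 and 26.6, 35.2 and 17.6 in Int4.

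Pectin esterases, which trim methyl and acetyl groups, were divided, with 6 rises and 7 falls among 19. Without Int2 replicate 1 there were 3 rises. Both transcripts of Sobic.006G172000, a pectin methylesterase, fell. The more abundant, Sobic.006G172000.2, had 83.0, 86.5 and 99.2 in Int2 and 7.45, 4.22 and 19.1 in Int4. Sobic.003G384900.1, a pectin acetylesterase, rose evenly, with 4.9, 5.76 and 4.5 in Int2 and 34.5, 35.8 and 33.4 in Int4 and a log2 fold change of 2.67 (SE 0.14, limma adjusted p = 5.82e-08).

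Glycosidases of wall polymers had 9 rises and 2 falls among 22 transcripts, 20 of which passed the RPKM threshold in Int2 or Int4. Sobic.004G244600.1, a glycosyl hydrolase of family 9, which holds endoglucanases, had 3.29, 2.7 and 1.18 in Int2 and 56.1, 44.8 and 36.0 in Int4 and a log2 fold change of 4.06 (SE 0.30, limma adjusted p = 4.55e-07). Sobic.008G017800.1, matched to an arabinofuranosidase/xylosidase that trims side sugars, had 30.7, 29.8 and 26.9 in Int2 and 99.4, 105 and 116 in Int4. Sobic.001G089100.3 fell, with 40.7, 38.8 and 45.0 in Int2 and 2.92, 2.03 and 2.32 in Int4.

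Lignin is built from phenylalanine in a chain of steps. In the list for its synthesis 25 of 42 transcripts rose and 2 fell, with a median of 1.47. All 3 Int4 values exceeded all 3 Int2 values in 34 of the 42 and lay below them in 4, beside 24.6% and 37.3% of all tested transcripts, all as deposited. Int2 replicate 3 was the lowest Int2 library in 25 of them and Int4 replicate 1 the highest Int4 library in 33.

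Phenylalanine ammonia-lyase (PAL), which opens the pathway, had 4 transcripts and all 4 rose. Sobic.004G220300.1 had 415, 334 and 187 in Int2 and 2265, 1622 and 1268 in Int4. It was the most abundant transcript of the list, with a log2 fold change of 2.49 (SE 0.30, limma adjusted p = 2.05e-05), and replicate 3 was the lowest library of both internodes. The other 3 are its neighbours on chromosome 4, and with Sobic.004G220600.1 they make a run of 5 loci, chosen after the values were seen. Sobic.004G220400.1 had 126, 125 and 102 in Int2 and 369, 302 and 293 in Int4. Sobic.004G220500.1 had 5.61, 7.62 and 8.49 in Int2 and 83.5, 73.6 and 57.0 in Int4. Sobic.004G220700.1 had 24.7, 26.3 and 25.9 in Int2 and 214, 186 and 188 in Int4.

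The members of this run did not behave alike along the stem. The mean of Sobic.004G220300.1 in Int3, 1548 ± 469.7, was close to that in Int4, while Sobic.004G220500.1 and Sobic.004G220700.1 were at 20.9 ± 1.93 and 57.8 ± 2.34 in Int3, well short of 71.4 ± 13.4 and 196 ± 15.5 in Int4. Sobic.004G220600.1, which has no category in the portion of the annotation used, had 2.77, 2.92 and 3.9 in Int2 and 95.6, 105 and 99.8 in Int4. Its replicates agreed closely, with a log2 fold change of 4.78 (SE 0.13, limma adjusted p = 9.94e-10). PAL genes are similar in sequence, so their reads may be shared.

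The steps after PAL rose in part. For cinnamate 4-hydroxylase, which adds a hydroxyl group to the ring, 1 of 2 categorised transcripts rose and 0 fell. Both were weak, with a summed RPKM of 6.98, 5.88 and 3.65 in Int2 and 20.5, 11.7 and 9.27 in Int4. The portion of the annotation used may not hold all transcripts of this step. For 4-coumarate:CoA ligase (4CL), which activates the acids, 8 of 13 rose and 2 fell, and the summed RPKM was 107, 97.2 and 80.6 in Int2 and 355, 274 and 226 in Int4. The 2 that fell, Sobic.001G189300.1 and Sobic.003G391600.1, are matched to a peroxisomal protein of Arabidopsis and had log2 fold changes of -1.34 (SE 0.16) and -1.23 (SE 0.12).

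Hydroxycinnamoyl transferase (HCT), which joins the activated acids to shikimate, had 3 rises and 0 falls among 6 transcripts, and its sum went from 75.8, 78.8 and 62.8 to 298, 222 and 187. Coumarate 3-hydroxylase had 1 rise and 0 falls among 2, and its sum was 56.1, 48.5 and 39.4 in Int2 and 86.0, 63.1 and 59.3 in Int4. The caffeoyl-CoA O-methyltransferase transcripts (CCoAOMT), which methylate the ring, had 2 rises and 0 falls among 3. Their sum was 287, 279 and 205 in Int2 and 711, 475 and 468 in Int4.

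Cinnamoyl-CoA reductase (CCR), which makes the aldehydes, had 4 rises and 0 falls among 8. For the final step, cinnamyl alcohol dehydrogenase, no count or summed RPKM is given, so nothing is said of the step as a whole. The largest rise of the whole lignin list was that of a single transcript of this step, Sobic.006G014700.1. It had 0.12, 0.12 and 0.3 in Int2 and 20.2, 17.0 and 14.4 in Int4. It was almost unseen in Int2 and rose with a log2 fold change of 4.7 (SE 0.26, limma adjusted p = 6.98e-08), and its mean in Int3 was only 1.43 ± 0.66. Sobic.003G342200.1, a CCR-like transcript, had 0.14, 0.44 and 0.25 in Int2 and 12.1, 12.1 and 9.3 in Int4.

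Phenylalanine is supplied by the shikimate pathway. In the list for aromatic amino acid synthesis 8 of 20 transcripts rose and 3 fell, with a median of 0.78. Without Int2 replicate 2 or Int4 replicate 1, 5 rose. Sobic.006G066200.1, an arogenate dehydratase that makes phenylalanine, had 17.5, 20.4 and 18.7 in Int2 and 159.6, 129 and 104 in Int4 and a log2 fold change of 2.74 (SE 0.14, limma adjusted p = 4.39e-08). Sobic.001G351000.1, the DAHP synthase that opens the shikimate pathway, had 114, 85.3 and 68.9 in Int2 and 325, 247 and 207 in Int4. Its rise lost the call without Int2 replicates 2 or 3 or Int4 replicate 1, with limma adjusted p values from 0.00122 to 0.0013. Sobic.001G056500.1, a tryptophan synthase alpha-type transcript, rose with 7.21, 11.0 and 16.3 in Int2 and 98.8, 105 and 115 in Int4. The anthranilate synthase transcript Sobic.006G109100.1, of the tryptophan branch, fell, with 29.5, 29.1 and 35.8 in Int2 and 5.32, 5.08 and 10.6 in Int4.

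Flavonoids, which include pigments and antioxidants, also derive from phenylalanine. In their list 24 of 35 transcripts rose and 2 fell, with a median of 1.86. Sobic.009G162500.1, a flavonoid 3'-monooxygenase, had 8.73, 6.32 and 2.43 in Int2 and 88.9, 58.9 and 54.6 in Int4. It rose with a log2 fold change of 3.54 (SE 0.39, limma adjusted p = 1.19e-05) and its Int3 mean was 106 ± 50.3. Sobic.006G226700.1 and Sobic.006G227800.2, both categorised as anthocyanidin reductases, moved apart. Sobic.006G226700.1 had 2.55, 3.25 and 1.95 in Int2 and 43.4, 41.8 and 33.5 in Int4. Sobic.006G227800.2 had 25.4, 21.2 and 12.3 in Int2 and 5.07, 3.29 and 1.28 in Int4. The latter fall lost its call without Int2 replicates 1 or 2, with limma adjusted p values of 0.00146 and 0.00153.

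Among the other phenylpropanoid transcripts 10 of 19 rose and 2 fell, or 1 without Int2 replicate 3, without Int4 replicate 1 or after scaling. Several of these are O-methyltransferase transcripts, which add methyl groups to phenolics. Sobic.009G197800.1 had 0.25, 0.63 and 0.64 in Int2 and 25.2, 24.9 and 34.4 in Int4 and a log2 fold change of 4.84 (SE 0.25, limma adjusted p = 4.6e-08). Its neighbour Sobic.009G197000.1 was abundant in both internodes, with 194, 149.7 and 95.3 in Int2 and 74.7, 84.9 and 92.1 in Int4, and was not called. On chromosome 5, Sobic.005G101900.1 fell, with 145, 147 and 106 in Int2 and 19.7, 6.25 and 10.6 in Int4.

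**Figure D5:**
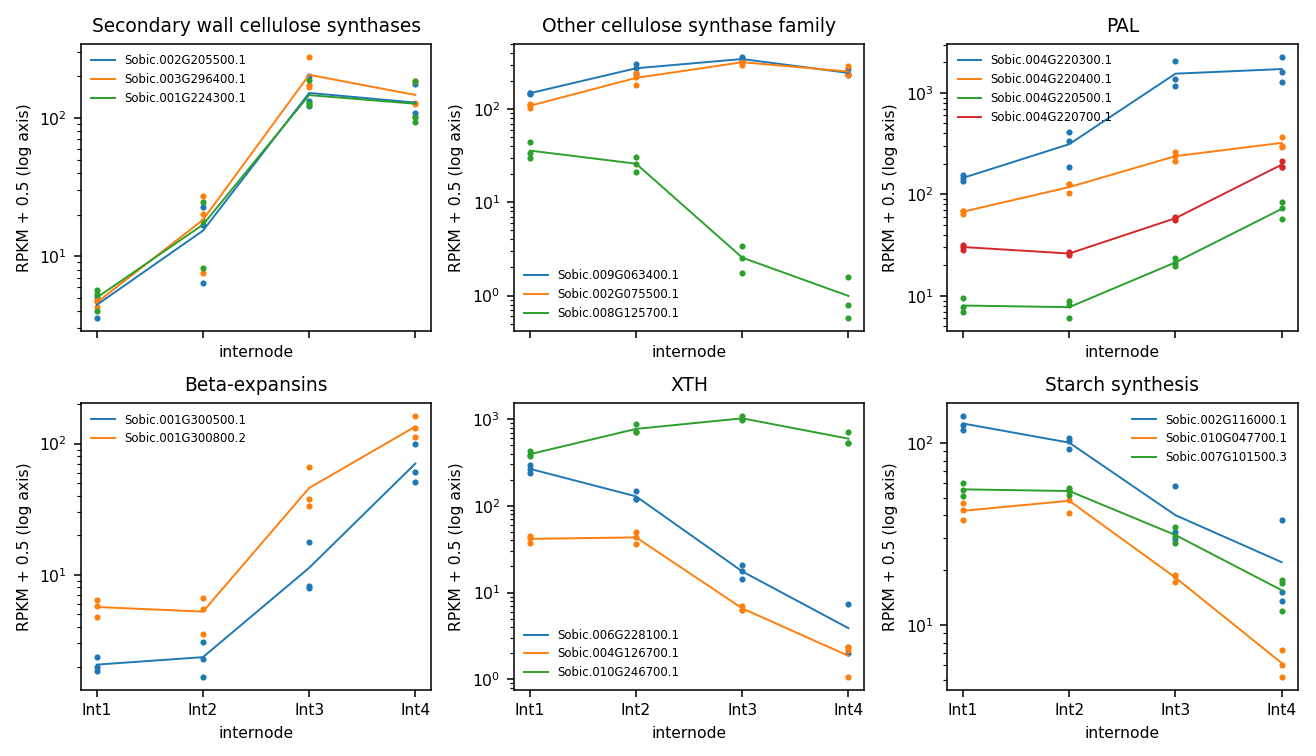
RPKM + 0.5 (log axis) in each library (points) and the internode means (lines) from Int1 to Int4 for named transcripts of 6 groups. Between Int2 and Int4 the 3 secondary wall cellulose synthases, 4 PAL and 2 beta-expansins rose, 2 XTH, the cellulose synthase-like Sobic.008G125700.1 and 3 starch synthesis transcripts fell, and Sobic.010G246700.1, Sobic.009G063400.1 and Sobic.002G075500.1 were not called.

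Starch is the insoluble glucose store of plastids. Of 8 transcripts for starch synthesis 0 rose and 7 fell, with a median of -1.63, and of 7 for starch degradation 0 rose and 6 fell, with a median of -1.6. With only the 6 libraries of Int2 and Int4, 5 of the starch synthesis transcripts were called lower, and 2 when the replicate number was also a block. The starch synthase Sobic.010G047700.1 had 54.2, 48.1 and 40.5 in Int2 and 4.69, 5.56 and 6.78 in Int4 and a log2 fold change of -2.96 (SE 0.14, limma adjusted p = 3.04e-08). Sobic.002G116000.1, matched to a granule-bound type, had 105, 92.4 and 102 in Int2 and 37.2, 14.6 and 13.1 in Int4. Int4 replicate 1 lay above the other Int4 libraries but still below Int2, and the call was lost in both fits of 6 libraries. Sobic.007G101500.3, the small subunit of ADP-glucose pyrophosphorylase, which makes the substrate of starch synthases, had 54.5, 51.3 and 56.0 in Int2 and 17.1, 11.5 and 16.5 in Int4. On the degradation side, the cytosolic-type phosphorylase Sobic.003G358600.1 had 46.1, 41.5 and 49.5 in Int2 and 7.49, 12.3 and 17.0 in Int4 and fell with a log2 fold change of -1.92 (SE 0.25, limma adjusted p = 4.18e-05).

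Sucrose is cleaved by sucrose synthase and invertases and is remade through fructose bisphosphatase. The list of these enzymes had 6 rises and 1 fall among 12 transcripts and a median of 1.01, with 3 rises without Int2 replicate 1. Its most abundant member, the sucrose synthase Sobic.010G072300.1, had 157, 197 and 203 in Int2 and 246, 364 and 378 in Int4. All Int4 values were above Int2, but the log2 fold change of 0.81 (SE 0.16) missed the 2-fold threshold. The log2 fold change of Sobic.010G072300.1 became 1.01 without Int4 replicate 1 and 1.0 after scaling, and the rise was then called. Sobic.004G172700.1, a neutral invertase, had 50.1, 57.2 and 57.2 in Int2 and 121, 101 and 124 in Int4, and its log2 fold change of 1.06 fell just under the 2-fold threshold without Int2 replicate 1. The fructose bisphosphatase transcript Sobic.003G367500.1 had 5.48, 4.87 and 3.78 in Int2 and 39.2, 34.7 and 22.8 in Int4 and a log2 fold change of 2.63 (SE 0.36, limma adjusted p = 7.02e-05).

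Trehalose phosphate is a sugar signal made and removed by its synthase (TPS) and phosphatase (TPP). Of 13 transcripts 10 rose and 0 fell, with a median of 1.91. Sobic.004G293500.3, a TPP, had 1.89, 3.52 and 3.7 in Int2 and 102, 103 and 76.9 in Int4. It rose with a log2 fold change of 4.77 (SE 0.21, limma adjusted p = 1.9e-08), as did Sobic.004G293500.5 and Sobic.004G293500.1 of the same locus, by 4.6 and 4.26. The most abundant, the TPP Sobic.002G184600.1, had 122, 136 and 138 in Int2 and 411, 325 and 190.4 in Int4. It was not called (limma adjusted p = 0.00211), and Int4 replicate 3 lay nearest to Int2. Without that library the log2 fold change of Sobic.002G184600.1 was 1.47 and the rise was called (limma adjusted p = 0.00012). Sobic.004G325900.1, a TPS/TPP-type transcript, rose evenly, with 29.7, 33.7 and 30.1 in Int2 and 108, 90.5 and 91.1 in Int4.

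Callose is a glucan laid down at dividing walls, plasmodesmata and sieve plates. All 7 transcripts of its list were called, 1 higher and 6 lower. Sobic.010G275800.1, a callose synthase, had 121, 118 and 140.1 in Int2 and 23.6, 27.0 and 47.0 in Int4 and a log2 fold change of -2.01 (SE 0.21, limma adjusted p = 8.53e-06). Sobic.003G179600.1 fell likewise, with 48.5, 44.4 and 47.2 in Int2 and 8.2, 5.93 and 13.4 in Int4. The exception was Sobic.001G521500.1, with the same Arabidopsis match as Sobic.010G275800.1, and it had 9.79, 8.29 and 8.62 in Int2 and 24.7, 26.3 and 23.4 in Int4.

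Central carbon metabolism was mixed, with 14 rises and 20 falls among 54 transcripts of glycolysis, fermentation and organic acids and a median of 0.05. Sobic.004G205100.1, a glyceraldehyde 3-phosphate dehydrogenase, had 476, 425 and 358 in Int2 and 144, 110.5 and 116 in Int4 and fell with a log2 fold change of -1.76 (SE 0.13, limma adjusted p = 5.09e-07). The phosphofructokinase Sobic.009G071800.1 rose from almost nothing, with 0.04, 0.04 and 0.04 in Int2 and 7.86, 4.67 and 4.38 in Int4. In mitochondrial electron transport 3 of 17 rose and 6 fell, or 3 without Int4 replicate 1 or after scaling. There the alternative oxidase transcripts moved apart. Sobic.004G270500.1 had 53.6, 42.5 and 42.4 in Int2 and 19.9, 13.6 and 14.4 in Int4. Sobic.006G203000.1 had 0.12, 0.3 and 0.18 in Int2 and 5.59, 5.66 and 4.17 in Int4. The minor carbohydrates had 10 rises and 3 falls among 24 transcripts, including the alpha-galactosidase Sobic.001G208100.1, with a log2 fold change of 1.55 (SE 0.13). The rises among minor carbohydrates numbered 4 without Int2 replicate 2 and 6 without any 1 of Int2 replicates 1 and 3 and Int4 replicates 1 and 2, and the falls 1 after scaling or without any 1 Int2 library or Int4 replicate 1.

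Lipid transcripts also contained close relatives with opposite changes. In fatty acid and phospholipid synthesis 14 of 55 transcripts rose and 18 fell, with a median of 0.47. Sobic.001G407600.1, an omega-3 desaturase, which makes triunsaturated fatty acids, had 93.2, 113 and 120.3 in Int2 and 581, 535 and 624 in Int4. Sobic.005G002800.1, with the same Arabidopsis match, had 26.1, 28.0 and 25.1 in Int2 and 1.65, 1.43 and 4.05 in Int4. Neither overlapped, and their log2 fold changes were 2.41 (SE 0.13) and -3.34 (SE 0.26). The acyl carrier protein thioesterase Sobic.004G088100.1, which releases fatty acids from the plastid, rose, with 12.9, 18.4 and 19.7 in Int2 and 106, 162 and 159 in Int4. Sobic.007G112100.1, an enoyl reductase of fatty acid synthesis, fell, with 75.8, 72.8 and 80.5 in Int2 and 13.9, 13.2 and 19.9 in Int4.

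Lipid breakdown leaned to Int4, with 24 rises and 7 falls among 55 and a median of 0.97. The triacylglycerol lipase Sobic.009G048100.1 had 0.04, 0 and 0 in Int2 and 45.8, 9.13 and 28.2 in Int4. It was almost absent from Int2 and uneven in Int4. Sobic.001G429900.1, a secreted phospholipase A2, had 2.89, 2.44 and 2.04 in Int2 and 88.8, 47.6 and 48.8 in Int4 and a log2 fold change of 4.34 (SE 0.28, limma adjusted p = 2.05e-07). The carboxylesterase Sobic.003G048500.2 fell, with 113, 103 and 119 in Int2 and 10.7, 12.9 and 16.9 in Int4. Lipid transfer proteins had 6 rises and 2 falls among 11, including the abundant Sobic.006G011300.1, matched to a membrane-related protein, with 28.0, 34.1 and 40.8 in Int2 and 232, 213 and 208 in Int4.

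Sterols and sphingolipids are membrane lipids, and isoprenoids supply sterols, carotenoids and terpenes. Sterols and sphingolipids had 2 rises and 8 falls among 22. The rises were both transcripts of 1 locus, Sobic.003G173700, listed at 0 throughout Int2 and at no more than 3.36 RPKM in Int4. Without Int4 replicate 2 both calls were lost, because the means then fell below 2 RPKM, and without Int4 replicate 1 that of Sobic.003G173700.1 was lost. Isoprenoids had 5 rises and 3 falls among 22, and all 3 falls were of mevalonate pathway steps. The 3-hydroxy-3-methylglutaryl-CoA reductase Sobic.007G207600.1, a regulated step of that pathway, had 101, 82.8 and 68.6 in Int2 and 27.7, 26.8 and 27.4 in Int4 and a log2 fold change of -1.59 (SE 0.15, limma adjusted p = 3.49e-06). Sobic.007G055700.1, a terpenoid cyclase, rose, with 8.05, 10.2 and 7.63 in Int2 and 58.8, 92.8 and 69.1 in Int4. Wax had 1 rise and 1 fall among 6, with 2 rises without Int2 replicate 1 or with a pseudocount of 1.

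Nitrogen and sulfur assimilation had 4 rises and 3 falls among 12 transcripts. All rises were transcripts of glutamine synthetase locus Sobic.004G247000, which recaptures ammonia, and their values cannot be separated with confidence because reads can be divided among them. The most abundant, Sobic.004G247000.4, had 70.3, 51.8 and 46.9 in Int2 and 266, 186 and 155 in Int4 and a log2 fold change of 1.82 (SE 0.27, limma adjusted p = 0.000121). Sobic.004G247000.1 lost its call without Int4 replicate 2 (limma adjusted p = 0.00105). Sobic.004G247000.2 lost its call without Int2 replicates 2 or 3 (0.00113 and 0.00114). In both fits of 6 libraries, 2 rises of this list were called. In other amino acid synthesis 9 of 39 rose and 10 fell. Sobic.009G033600.1, an S-adenosylmethionine synthetase, which supplies methyl groups, had 640.5, 596 and 515 in Int2 and 1416, 1125 and 994 in Int4. It stood at the 2-fold threshold, with a log2 fold change of 1.0 (SE 0.18, limma adjusted p = 0.000432), and the call was lost without any 1 Int2 library or Int4 replicates 1 or 2 (limma adjusted p from 0.00109 to 0.00262, log2 fold change from 0.86 to 1.07). Sobic.003G151600.1, with the same match, had 343, 354 and 273 in Int2 and 529, 400.4 and 408 in Int4 and was not called.

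Amino acid degradation was balanced, with 6 rises and 7 falls among 22. Sobic.006G243200.1, an asparaginase, had 21.2, 14.4 and 15.7 in Int2 and 1.18, 3.28 and 3.92 in Int4. Sobic.004G001300.1, a hydroxypyruvate reductase, rose, with 0.43, 0.4 and 0.4 in Int2 and 7.26, 6.05 and 4.31 in Int4. Metal handling had 11 rises and 6 falls among 25 and a median of 1.18, with 7 rises when Int2 replicate 3, Int4 replicate 1 or Int4 replicate 2 was left out. Its most abundant member, the metallothionein Sobic.003G071901.1, had 1184, 1411 and 1449 in Int2 and 793, 1558 and 1167 in Int4. These overlapped and it was not called.

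Of the 25 photosynthesis transcripts, 5 rose and 4 fell, with a median of 0.54. The rises numbered 3 without Int2 replicate 1, 2 without Int4 replicate 2 and 8 after scaling. The largest rises were of weakly expressed photosystem subunits. The photosystem I subunit Sobic.001G314200.1 had 1.86, 3.02 and 2.17 in Int2 and 11.5, 10.1 and 8.54 in Int4, and its call was lost without replicates 1 or 3 of Int2 or 1 or 2 of Int4 (limma adjusted p from 0.00143 to 0.00167). The falls included the ferredoxin-like Sobic.007G150800.1, with 90.6, 87.3 and 74.9 in Int2 and 38.8, 33.4 and 30.6 in Int4 and a log2 fold change of -1.29 (SE 0.10, limma adjusted p = 8.16e-07). The most abundant, the glycine decarboxylase Sobic.008G039900.1, had 86.5, 84.9 and 65.1 in Int2 and 182, 134 and 118 in Int4 and missed the 2-fold threshold. The log2 fold change of Sobic.008G039900.1 was 0.86 (SE 0.16) as deposited and 1.06 after scaling, when it was called.

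A called rise was found at 2455 loci and a called fall at 2372, and 3 loci had both. These 3 loci are named here after their values were seen. Only loci with several called transcripts could show opposite calls, and the number of such loci is not given, so no frequency is read from this. At Sobic.005G061500, transcript Sobic.005G061500.1 had 0.45, 2.16 and 1.36 in Int2 and 16.8, 33.4 and 25.6 in Int4. Transcript Sobic.005G061500.2 had 11.6, 8.71 and 12.6 in Int2 and 2.74, 1.78 and 5.17 in Int4. The main form thus changed over between the internodes, with log2 fold changes of 3.89 (SE 0.33) and -1.71 (SE 0.31). At Sobic.010G176900 the abundant Sobic.010G176900.1 fell, with 133, 126 and 139.6 in Int2 and 65.0, 36.1 and 57.1 in Int4, while Sobic.010G176900.3 rose, with 1.61, 4.22 and 2.74 in Int2 and 44.9, 24.8 and 25.4 in Int4. The third locus, Sobic.010G054000, had a rise of 1.38 for Sobic.010G054000.4 and a fall, of -1.69, for Sobic.010G054000.1. Reads that fit several transcripts of a locus cannot be assigned with certainty, so these values are less certain than those of loci with 1 transcript.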

How the data were processed

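RNA from whole internodes was sequenced as single-end poly-A libraries (TruSeq v2, Illumina HiSeq) that do not record the strand. Per the paper's methods, the authors mapped reads to the Sorghum bicolor v3.1 transcripts in CLC Genomics Workbench and deposited RPKM values, with 2 decimals, for 47205 transcripts in 12 libraries (3 in each of 4 internodes). RPKM carries no read counts, so no counting interval is given, and reads shared by near-identical genes or by transcripts of 1 locus are uncertain. All value columns were mapped to samples.

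Calls came from limma 3.58.1 in R 4.3.3 on log2(RPKM + 0.5), with 1 mean for each internode, a spread shared by all 12 libraries (prior degrees of freedom 3.64) and a variance trend, over the 26320 transcripts whose mean RPKM reached 1 in some internode. P values were adjusted by the Benjamini-Hochberg method. The thresholds, an adjusted p under 0.001, a 2-fold change and a mean RPKM of at least 2, follow those stated in the paper's methods, which applied a count test in CLC. Fold changes are on the log2(RPKM + 0.5) scale, which understates the change of low transcripts. The fitting code was tested on simulated data. Tables and figures were made in Python 3.11.15 with numpy 2.4.6, pandas 2.3.3 and matplotlib 3.10.9.

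Named transcripts were the 15 largest rises and falls and the 10 largest gains and losses in mean RPKM among calls without overlap, in each list the 2 most abundant members and up to 3 largest called rises and falls, and the 10 transcripts with qPCR primers. Some transcripts outside this rule, those of the runs of neighbouring loci, of loci with opposite changes and 2 cellulose synthases in the plot of families, were chosen after their values were seen. Transcripts and lists were chosen with earlier results of these data known. Categories were taken from a shortened copy of the study's annotation of transcripts it found to differ in expression. The portion used held 770 transcripts, of which 22 fell in no list, the rest was not used here, and no other names were matched. An item withheld for evaluations is not reported here. Alternatives were other pseudocounts, no filter, median-ratio scaling, fewer libraries, array weights, other thresholds, the replicate number as a block and each Int2 and Int4 library left out.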

Additional observations from a re-analysis of the deposited data

How the results depend on the processing

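The number of calls ranged from 4870 to 5132 with other pseudocounts, was 4883 with no filter, 4981 with array weights and 5003 with 1 prior variance. It was 3984 with the 6 libraries of Int2 and Int4 alone. Leaving out each of the 6 Int2 and Int4 libraries in turn gave 4421 to 5208 calls, 2280 to 2536 of them higher and 2104 to 2672 lower. Median-ratio scaling gave 3100 higher and 1876 lower, or 3095 and 1978 without Int4 replicate 3, an alternative chosen after seeing the data. Leaving out Int3 replicate 2, also chosen after seeing the data, gave 4972 calls, and the other Int1 and Int3 libraries were not left out. The labels do not say whether the same replicate number marks the same plant. Deviations of replicates with the same number had correlations of 0.22, 0.04 and 0.23 for Int2 against Int4, which do not settle this. The numbers were not used as pairs in the main fit. With the replicate block there were 4822 calls over 12 libraries and 3491 over 6 libraries, with 1942 higher and 1549 lower, and called falls in starch synthesis went from 7 to 2. Of 64 counts of called rises or falls in a list, 18 moved by over 1.5 times with the block over 6 libraries, 0 with the block over 12 and 13 when a library was left out. The cause was not tested. The number of transcripts in either internode was 28970 at a threshold of 0.5 RPKM and 20907 at 2 RPKM.

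Of 243 called transcripts named by rule, 62 lost the call under at least 1 alternative, 34 of them outside the fits of 6 libraries, and 0 reversed. With no read counts, depth limits the weakest transcripts in a way that cannot be stated for each value.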
